A study of Rattus norvegicus with 6 samples.

Results

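PPAR-alpha and the fatty acid oxidation genes linked to it were followed in rat jejunum after heat and shake stress. The set held 8 genes, Ppara, Slc27a2, Cpt1a, Acadm, Acadl, Ehhadh, Pdk4 and Angptl4, out of 13837 genes that could be named on the array. All non-control probes whose RefSeq accession belonged to 1 of these genes were taken, which gave 9 probes of 41012, and Slc27a2 had 2 of them. The genes were picked because Slc27a2 was among the largest differences between the groups of these same arrays, so the differences of the members are given as a description, without a test.

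The animals were male Sprague-Dawley rats of 6 weeks, weighing 200 ± 20 g and housed at 25°C and 60% humidity. Control rats were not stressed, and S3d rats spent 2 h of each of 3 days at 35°C on a shaker set to 0.1 × g. Jejunal RNA was hybridised to 1-colour Agilent arrays, with 3 arrays labelled control and 3 labelled S3d. According to the labels a group had 10 rats and a sample combined the RNA of 3, so the spread between arrays is a spread between pools and not between single animals. The tissue was a washed piece of the whole gut wall, in which fewer cells of a type and less RNA per cell cannot be told apart.

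PPAR-alpha is a nuclear receptor that binds DNA together with the retinoid X receptor and switches on genes of fatty acid use when fatty acids or fibrate drugs bind to it. Its known targets cover uptake and activation of fatty acids, the carnitine shuttle into mitochondria, beta-oxidation in mitochondria and peroxisomes, omega-oxidation by microsomal cytochromes and ketone body synthesis. In the small intestine it is known for the response of the absorbing enterocytes to dietary fat and fasting.

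Several properties of the arrays touch every value below. Each group lay on a slide of its own, and no slide held both groups. The slides were scanned 450 days apart, so slide, scan and group cannot be told apart. At the 75th percentile the processed signal reached 414.8 to 430 on the control arrays and 1458 to 1558 on the S3d arrays, and 69.1% to 73.7% against 77.5% to 81.5% of spots were well above background. Values are therefore given as the relative log2 signal, which is the log2 processed signal after subtraction of the array's own 75th percentile. Pearson correlations over the tested probes were 0.993 to 0.995 within the control group, 0.984 to 0.994 within the S3d group and 0.925 to 0.939 between groups.

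The group labels of the deposited sources oppose each other. Each column of the deposited normalized table tracked an array that the scanner files assign to the opposite group under the same number, with Spearman correlations of 0.99999 to 1, against 0.9413 to 0.9484 for the array of its own name. No array was reassigned. Every direction below is that of the scanner files, S3d minus control, and all 9 member probes carry the other sign in the normalized table. These directions oppose those the study gives for its arrays and its RT-PCR. Of the genes it followed by RT-PCR, Lcn2 differed by -2.69, Zbtb16 by -1.88, Atf6 by -2.01, Atf4 by -1.26 and Mtor by 1.24 between the scanner files' groups. The study describes Lcn2, Zbtb16, Atf6 and Atf4 as raised by stress and mTOR as lowered. Herpud1, at -0.32, was the only gene of the RT-PCR set with a like direction, and quantile normalization gave 0.1 for it. Without scaling between arrays Casp12 (1.06), Casp8 (1.35), Casp9 (1.67), Atf4 (0.58), Dap (0.94) and Herpud1 (1.53) turned positive. All of these but Herpud1 then had the direction that the study gives. Lcn2, Zbtb16 and Atf6 stayed negative, at -0.84, -0.04 and -0.17, and Mtor stayed positive, at 3.09. Which arrays came from stressed rats is therefore not settled, and higher, lower, rose and fell refer below to the labels alone.

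The array labelled S3d 1 stood apart in its content of pancreatic RNA. Its relative log2 signal was 8.79 for Prss1, 6.33 for Cela1, 7.08 for Cpa1 and 6.67 for Pnlip, genes of digestive enzymes made by pancreatic acinar cells. The summed signal of the 4 genes was 9.57 on that array, against -0.98 and 0.94 on the other S3d arrays and -1.9 to -0.77 on the control arrays. None of the 3 tested pancreas genes passed limma's test between the groups, 0 did so by analysis of variance, and 0 had an unadjusted p under 0.05. Their S3d SDs were 5.31 to 6.77, mainly through S3d 1, so these tests cannot decide on a group difference. Pnlip did not overlap between the groups. Its control values were -7.44 to -6.66, none well above background, and S3d 2 and 3 stood at -5.05. Without S3d 1 the differences described below were -0.77 for Ppara, 0.3 for Cpt1a, 0.26 for Acadl, 0.18 for Ehhadh, -1.27 for Pdk4 and 0.81 for Angptl4. Those of Slc27a2 and Acadm stand beside their values. No pathway gene named by the fixed rule gained or lost its call without it, and Lpl moved from 0 to 0.04.

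Slc27a2 encodes very long chain acyl-CoA synthetase, also known as fatty acid transport protein FATP2, which couples very long chain fatty acids to coenzyme A in peroxisomes and the endoplasmic reticulum and takes part in fatty acid uptake. It is a known PPAR-alpha target in rodents. The promoter window of this gene is shown because it was the only member window with the core letters of a nuclear receptor site. Windows from 250 bases before to 50 bases after the start were taken from RefSeq (GRCr8), which had 1 for 7 of the 8 members and none for Acadl. The core AGGTCA, searched on both strands, lay in the Slc27a2 window on the minus strand, and its letters as printed on the plus strand begin 76 bases before the start. The capitals mark them, in chr3:134258013-134258042.
Slc27a2: ttcttgaagaaaTGACCTttgagatatgcc

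These 6 letters occurred in 16.2% of all 33469 promoter windows, in 1 of the 7 member windows and in 24% of 75 windows of the wider pathway. The direct repeat of this core with 1 base between the copies, the element that PPAR and the retinoid X receptor bind together, occurred in 0.0538% of all windows and in 0 of the 7. The looser repeat of AGGNCA, also with 1 base between, occurred in 0.415% of all windows, in 0 of the 7 and in 1.33% of the pathway windows. The Slc27a2 window was poor in G and C, at 41.7% against a median of 51.7%, whereas that of Ppara held 73.7% G and C and 32 CpG.

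The brighter Slc27a2 probe, A_43_P12655, had relative log2 signals of -3.8, -2.76 and -2.11 on the control arrays 1, 2 and 3 and of 1.19, 1.77 and 1.36 on the S3d arrays. All 3 S3d arrays lay far above all 3 control arrays, and control 1 was the lowest. The means were -2.89 ± 0.85 and 1.44 ± 0.3 (SD, n = 3), a difference of 4.33 (SE 0.43) or 20.2-fold. Before scaling, the processed signals were 29.7, 63 and 99.4 against 3340, 5310 and 4010, so the groups were as clearly apart on the scanner's own scale.

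The dimmer probe, A_44_P997755, carries the same accession and read the transcript at another spot of the same arrays. Its relative log2 signals were -6.48, -4.89 and -4.76 on the control arrays and -0.67, 0.05 and -0.14 on the S3d arrays. Again no values overlapped, and control 1 and S3d 1 were the lowest of their groups. The difference was 5.12 (SE 0.489), with processed signals of 4.65, 14.4 and 15.8 against 914, 1620 and 1410. This probe was well above background on 2 of the 3 control arrays, so its control mean includes a value not above background, and the size of the difference is uncertain. Without control 1 the difference was 4.57. The probe passed the filter on dim probes only through the S3d arrays.

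By size of difference the brighter probe ranked 116 and the dimmer, whose difference is uncertain in size, 40 of 31367 tested probes. Their replicate spread was also wide: the SD over the control arrays was higher than that of 98.4% and 98.9% of tested probes, and the median SD of all tested probes was 0.11 in either group. Without S3d 1, the differences were 4.46 and 5.33.

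**Figure D1:**
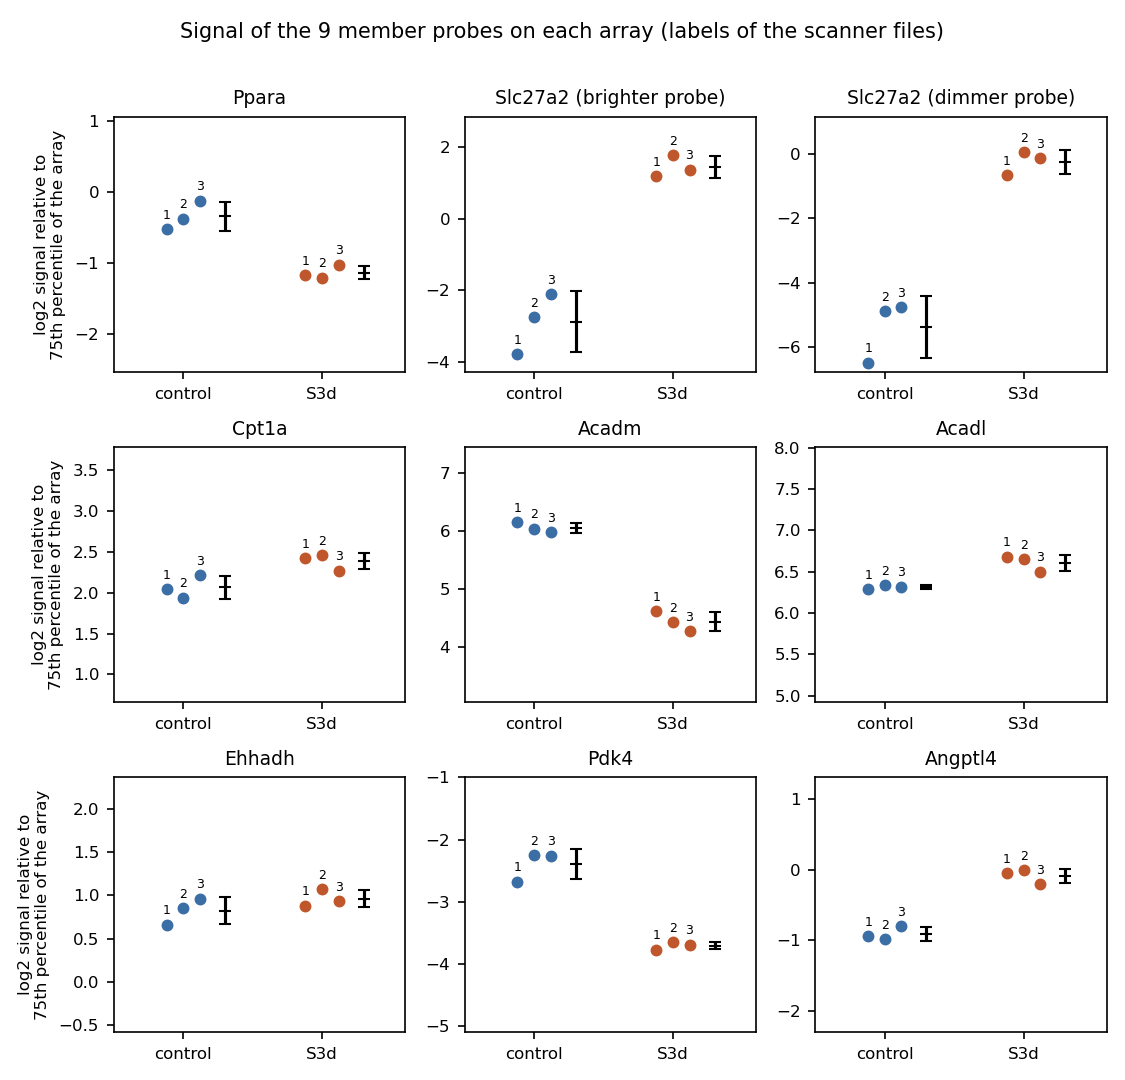
Relative log2 signal (y axis, log2 processed signal less the array's 75th percentile) of the 9 member probes on the 3 arrays labelled control (blue) and the 3 labelled S3d (orange). Digits are replicate numbers, and black bars are the mean with SD beside each group. Axes differ between panels. Both Slc27a2 probes show the widest gap, Ppara, Acadm and Pdk4 lie lower on the S3d arrays, and the groups overlap only for Ehhadh.

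Across the members the direction was mixed. Of the 9 probes, all of which passed the filter on dim probes, 6 were called, that is, had a limma adjusted p under 0.05 and a fold of at least 1.5, while 52.5% of all 31367 tested probes were called by the same rule. The adjusted p serves here only to count by 1 rule. The called probes were 3 higher in S3d (both Slc27a2 probes and Angptl4) and 3 lower (Ppara, Acadm and Pdk4), beside 29.2% and 23.3% of all tested probes. The groups did not overlap in 8 of the 9 probes, beside 78.9% of all probes with 6 values. The median difference of the 9 probes was 0.29 and that of all tested probes 0.08. Because the set was chosen on this contrast, nothing is read from these counts. With only probes well above background on all 6 arrays, which drops the dimmer Slc27a2 probe, 5 of 8 were called, 2 higher and 3 lower. The called probes were the same 6 without S3d 1.

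Ppara, the receptor itself, had relative log2 signals of -0.52, -0.37 and -0.12 on the control arrays and -1.17, -1.2 and -1.02 on the S3d arrays. Every S3d array was lower than every control array, and the gap between the groups was larger than the range within either. The difference was -0.79 (SE 0.119), with means of -0.34 ± 0.2 and -1.13 ± 0.1. The unscaled signals ran the other way, at 290, 330 and 396 against 646, 680 and 771, so the sign of this difference rests on the scaling between arrays.

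Cpt1a encodes the liver form of carnitine palmitoyltransferase 1, the step that commits long-chain fatty acids to mitochondrial oxidation. Its relative log2 signals were 2.04, 1.94 and 2.21 on the control arrays and 2.42, 2.46 and 2.27 on the S3d arrays. The groups did not overlap, but the highest control array and the lowest S3d array lay close together. The difference of 0.32 (SE 0.0978) corresponded to 1.25-fold and was under the fold threshold.

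Acadm and Acadl encode the medium-chain and long-chain acyl-CoA dehydrogenases, which catalyse the first reaction of each round of mitochondrial beta-oxidation, and they differed in opposite directions. Acadm stood at 6.15, 6.04 and 5.98 on the control arrays and at 4.61, 4.42 and 4.27 on the S3d arrays. All S3d values were below all control values, and the difference was -1.62 (SE 0.105) or 3.08-fold lower. Without S3d 1 it was -1.71.

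Acadl stood at 6.29, 6.34 and 6.32 on the control arrays and at 6.68, 6.65 and 6.5 on the S3d arrays. The S3d arrays were slightly but without overlap higher, by 0.29 (SE 0.072), which was under the fold threshold. With quantile normalization the difference was 1.02 and the probe was called. On the scanner's scale Acadm gave 29400, 28200 and 27200 against 35700, 33200 and 30100, and Acadl 32400, 34700 and 34300 against 150000, 156000 and 141000. On that scale neither gene was lower on the S3d arrays, and the lower Acadm value appeared with each of the scalings tried.

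Ehhadh, the bifunctional enoyl-CoA hydratase and dehydrogenase of peroxisomal beta-oxidation, was the member with the smallest difference. Its values were 0.66, 0.85 and 0.96 on the control arrays and 0.88, 1.07 and 0.93 on the S3d arrays. The groups overlapped, and the difference of 0.14 (SE 0.1) was similar in size to the replicate SDs of 0.15 and 0.1. Centring on the median turned it to -0.04.

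Pdk4 encodes pyruvate dehydrogenase kinase 4, which shuts off glucose oxidation when fatty acids are burned and is among the best known PPAR targets. Its values were -2.68, -2.25 and -2.26 on the control arrays and -3.77, -3.65 and -3.69 on the S3d arrays. The S3d arrays were tightly grouped below all control arrays, and the difference was -1.3 (SE 0.132) or 2.47-fold lower. Unscaled, the difference was 0.54, again in the other direction.

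Angptl4, a secreted inhibitor of lipoprotein lipase that is known to rise with fasting, was higher. It stood at -0.94, -0.98 and -0.8 on the control arrays and at -0.05, 0 and -0.2 on the S3d arrays. No values overlapped, and the difference was 0.82 (SE 0.0868) or 1.77-fold. Pdk4 and Angptl4, both known PPAR-alpha targets, therefore lay on opposite sides of 0.

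The dependence of these values on the processing was examined for all members together. Quantile normalization and normexp background correction left the direction of all 9 probes as it was, and median centring turned that of Ehhadh alone. Without any scaling between arrays all 9 differences were positive, from 0.22 for Acadm to 6.97 for the dimmer Slc27a2 probe, beside a median of 1.93 over all tested probes. After normexp, 1 member probe was called, the brighter Slc27a2 probe at 2.97, and the dimmer one gave 1.75 without a call. Slc27a2 was higher on the S3d arrays in each of these settings and lower in the deposited table by its own labels, at -4.26 and -4.8.

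**Figure D2:**
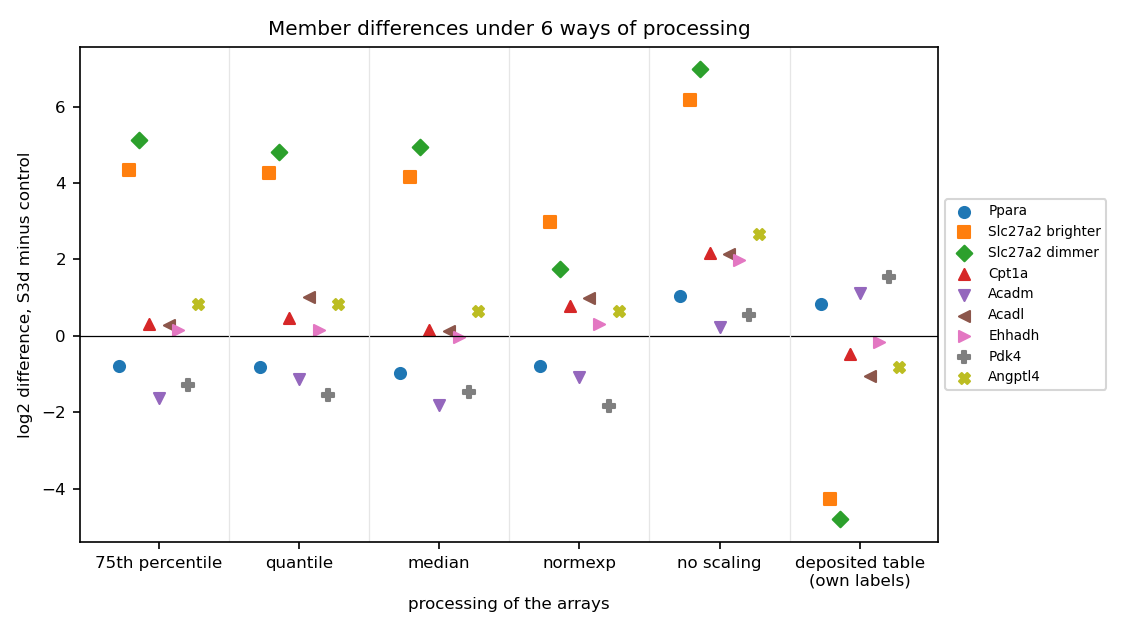
Difference between arrays labelled S3d and arrays labelled control (y axis, log2) for the 9 member probes (symbols) under 6 ways of processing (x axis). The Slc27a2 probes stay at 1.75 or more in the 5 settings made from the scanner files. Without scaling all symbols lie above 0, and the deposited table, whose labels are exchanged against those of the scanner files, mirrors the quantile values.

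The other genes of the pathway did not move together in 1 direction. A list of 88 further genes was set up by function, 81 had a probe named by accession and 79 were tested, with the brightest probe standing for each gene. Of these, 38 passed limma's test at the 1.5-fold threshold, 21 higher and 17 lower in S3d, or 48.1% of the tested list, while 49.2% of the 11482 tested named genes were called. The list's median difference was 0.06 and that of all named genes 0. Groups did not overlap for 79.7% of the list and 78.8% of named genes. Without S3d 1, 40 genes were called, 20 of them higher, and 37 were among the same 38. The split between higher and lower depended on scaling: it was 22 to 7 with quantile normalization, 18 to 24 with median centring, 75 to 0 without scaling and 4 to 2 with normexp. The share of calls that were higher was thus 55.3% for the list in the main setting and 75.9%, 42.9%, 100% and 66.7% in these settings, beside 55.7%, 50.2%, 44.7%, 98.8% and 31% for all tested probes. By its own labels the deposited table gave 29 calls, 7 higher and 22 lower. The share higher was 24.1% there, beside 50.2% for all tested probes. Rxra and Plin2 were among the listed genes without a match.

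In uptake and activation, 4 of 11 genes were called lower and 1 higher, beside 24% and 25.2% of all named genes. Fabp1, the liver-type fatty acid binding protein that is abundant in enterocytes, fell from 9.92 ± 0.04 to 8.28 ± 0.04, a difference of -1.64 (SE 0.0608, limma adjusted p = 1.32e-05). A second Fabp1 probe gave -1.68. With quantile normalization the difference was -0.33 and not called. Cd36, a fatty acid translocase of the brush border and a PPAR target, rose from 0.92 ± 0.49 to 2.56 ± 0.29, by 1.64 (SE 0.275, adjusted p = 0.0022). Without the fold threshold, 9 of the 11 genes were lower at an adjusted p under 0.05 and 2, Cd36 and Acsl6, were higher. By the same rule 10822 of all 31367 tested probes were lower and 12380 higher. Acsl6 differed by 0.52, but by 0.07 with quantile normalization and by -1.46 with normexp.

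Of the carnitine shuttle, 1 of 6 genes was called, beside 49.2% of all named genes. Slc22a5, the carnitine transporter OCTN2, rose by 1.04 (SE 0.214, limma adjusted p = 0.00515), and its second probe gave 1.29. Cpt2, the inner membrane transferase, stood at 3.31 ± 0.06 and 3.38 ± 0.11, a difference of 0.07 (adjusted p = 0.457).

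In mitochondrial beta-oxidation, 4 of 13 genes were called higher and 4 lower, beside 25.2% and 24% of all named genes. Control means were 4.95 to 6.58 for the genes called lower and 1.61 to 3.18 for those called higher. The part of signal level in this split was not tested. Acads, the short-chain acyl-CoA dehydrogenase, fell by 1.63 (SE 0.0637, limma adjusted p = 1.36e-05), close to the value of Acadm. Acadvl, the very long chain enzyme, fell by 0.68 (SE 0.0923, adjusted p = 0.000869) at its brightest probe, but its second probe gave 0.42 and quantile normalization gave -0.24, not called. Decr1, which prepares unsaturated fatty acids for oxidation, rose by 1.22 (SE 0.184, adjusted p = 0.00136). Hadha, the alpha subunit of the trifunctional protein, differed by 0.49 (adjusted p = 0.00111) and did not reach the fold threshold. Quantile normalization gave 0.79 for it, past the threshold, while its second probe gave -0.45.

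Subunits of the same complex were chosen for description after their values were seen. Etfa and Etfb, the subunits of the electron transfer flavoprotein that takes electrons from the acyl-CoA dehydrogenases, differed by 0.67 (limma adjusted p = 0.000753) and -1.09 (adjusted p = 3.39e-05), and quantile normalization gave -0.45 for Etfb, under the fold threshold. Median centring gave 0.5 for Etfa, also under it, and without scaling Etfb turned to 0.75. Hadhb, the beta subunit of the trifunctional protein, rose by 0.88 (adjusted p = 0.000119).

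Peroxisomal beta-oxidation had 5 of 16 tested genes called higher and 3 lower, beside 25.2% and 24% of all named genes. Amacr, the racemase for branched-chain fatty acids and bile acid intermediates, rose from 1.06 ± 0.3 to 2.69 ± 0.3, by 1.63 (SE 0.208, limma adjusted p = 0.000664), and its second probe gave 1.86. Abcd3, a transporter of the peroxisomal membrane, fell by 0.93 (SE 0.117, adjusted p = 0.000623), but not past the threshold with quantile normalization, where it gave -0.46.

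Among the omega-oxidation genes, 1 of 4 was called, beside 49.2% of all named genes. Cyp4a1, a fatty acid hydroxylase induced by PPAR-alpha agonists in rat liver, rose from -0.43 ± 0.13 to 1.38 ± 0.31, by 1.81 (SE 0.167, limma adjusted p = 0.000169). Cyp4a genes are close copies of each other, so a probe of 1 may also take up RNA of another.

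Of the 5 ketone body enzymes, 0 were called in limma's fit, beside 49.2% of all named genes. By analysis of variance 0 were called as well, and 4 had an unadjusted p under 0.05. The same 4 were higher at an adjusted p under 0.05 without the fold threshold, as were 12380 of all 31367 tested probes. Among the 4 enzymes, Bdh1, which interconverts acetoacetate and beta-hydroxybutyrate, differed by 0.45 (limma adjusted p = 0.00556). Oxct1, which activates acetoacetate for use as fuel, differed by 0.31 (adjusted p = 0.00778). Both were named after their values were seen.

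Receptors and coregulators had 4 of 9 genes called lower and 2 higher, beside 24% and 25.2% of all named genes. Ppard, the PPAR-delta receptor, fell from -0.53 ± 0.06 to -2.69 ± 0.15, by 2.16 (SE 0.0927, limma adjusted p = 1.58e-05). Ppargc1a, the coactivator PGC-1alpha, fell by 0.93 (SE 0.132, adjusted p = 0.00106). Pparg differed by 0.31 (adjusted p = 0.0747), which did not pass the test. Lpin1, a phosphatidate phosphatase that also acts as a coactivator, rose by 0.96 (SE 0.186, adjusted p = 0.004), whereas normexp turned it to -1.3.

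Of the 15 other targets and fuel regulators tested, 7 were called higher and 2 lower, beside 25.2% and 24% of all named genes. The 7 include Acacb and Ucp3, which entered the test only through the S3d arrays, where they were higher. Ucp3 was well above background on 1 of the 3 control arrays. Ucp2, an uncoupling protein of the inner mitochondrial membrane, fell by 1.04 (SE 0.0784, limma adjusted p = 7.83e-05). Acacb, the mitochondrial acetyl-CoA carboxylase whose product inhibits carnitine palmitoyltransferase 1, was not well above background on any control array, so that it entered the test only through the S3d arrays. It was at least 1.54-fold higher on the S3d arrays (adjusted p = 0.00418), and normexp turned the difference to -1.82. Lpl, the lipase that Angptl4 inhibits, stood at -1.08 ± 0.13 and -1.09 ± 0.1 (adjusted p = 0.974), but a further Lpl probe was higher by 0.88 (adjusted p = 0.000531). Over the whole list, 20 genes had several tested probes, and the signs of their probes differed in 8.

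**Figure D3:**
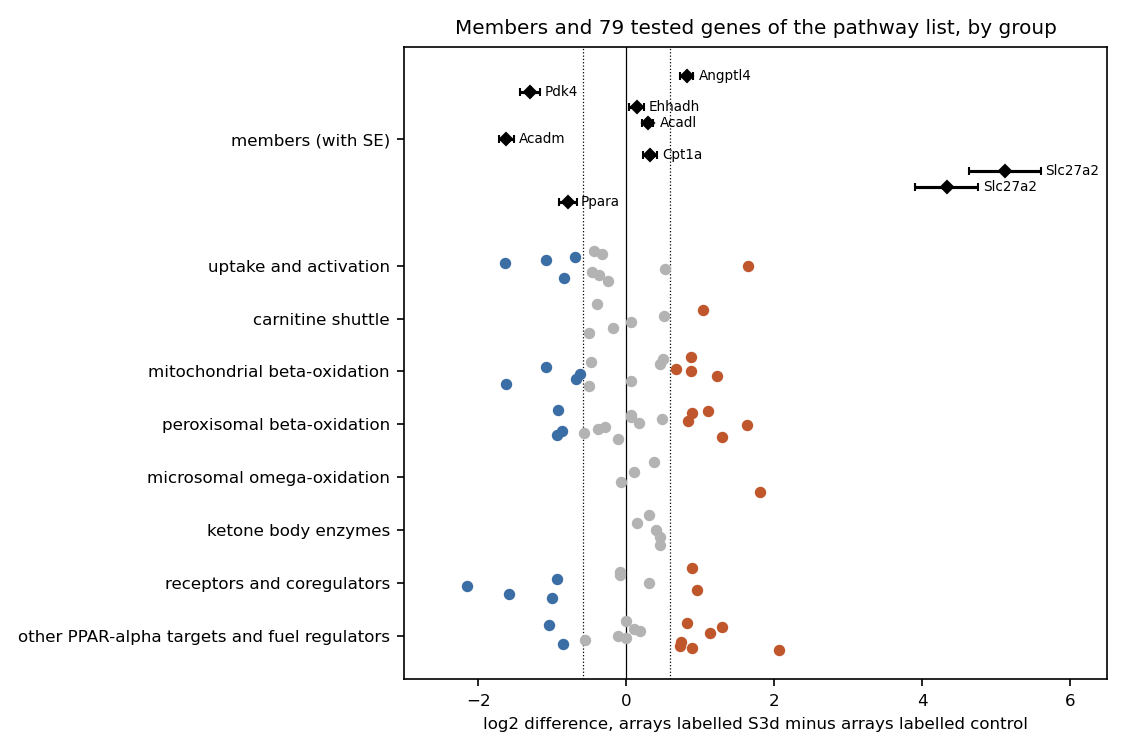
Difference between arrays labelled S3d and arrays labelled control (x axis, log2) for the member probes with SE (black diamonds, a description) and for the 79 tested genes of the pathway list in their 8 groups (circles). Orange and blue circles passed the limma test at 1.5-fold or more, grey ones did not, and dotted lines mark 1.5-fold. Both Slc27a2 probes lie to the right of every circle. The rightmost circle, Acacb, was not above background on the control arrays, so its place is uncertain.

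The genes whose pattern over the 6 arrays was most like that of the brighter Slc27a2 probe were Lemd3 (Pearson r = 0.9986), Hscb (0.9985), Rev3l (0.9983), Adam9 (0.9983) and Slc30a3 (0.9981), out of 10394 candidates. Their own differences ran from 0.33 for Hscb to 2.29 for Slc30a3. A total of 131 genes had an r above 0.99. The points share a slide within each group, and the coefficients are given as a description.

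The markers of the cell types that the tissue could hold also differed between the groups. Of the 10 jejunal enterocyte markers measured, all were above background. Limma called 6 lower and Lct, which encodes lactase, higher, by 0.66, beside 24% and 25.2% of all named genes. The summed relative log2 signal of the 10 markers was 11.78 to 11.93 on the control arrays and 10.57 to 10.63 on the S3d arrays. The brightest markers weigh most in this sum, with control means of 10.14 for Apoa4 and 9.92 for Fabp1. Fabp1 differed by -1.64, but by -0.33 with quantile normalization and by 0.21 without scaling. Whether this sum, or that of another marker list, stays lower with other scalings was not tested. Fabp1 and Fabp2 belong to the enterocyte list as well as to the uptake list. Both ileal markers were lower: Slc10a2, the ileal bile acid transporter, differed by -2.41 (adjusted p = 0.0015) and Fabp6 by -2.7 (adjusted p = 0.000173), and their summed signal was 1.44 to 2 against -1.09 to -0.14.

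Adipose tissue, which holds much Cd36, Lpl and Angptl4 RNA, gave summed signals of 3.24 to 3.7 on the control arrays and 2.17 to 2.64 on the S3d arrays. Cfd, the brightest of these markers, was called lower and Lep was not above background on any array. Adipoq overlapped between the groups, with a difference of -0.88 (limma adjusted p = 0.153), and Cidec, at -0.3, was not called. The smooth muscle markers summed to 6.09 to 6.32 against 5.47 to 5.72, with Myh11 called higher and Des and Tagln lower. The leukocyte markers summed to 2.6 to 2.68 against 2 to 2.08, with Ptprc and Cd79b called lower and Itgam higher. The part of these cell types in the differences of the fatty acid genes was not tested.

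**Figure D4:**
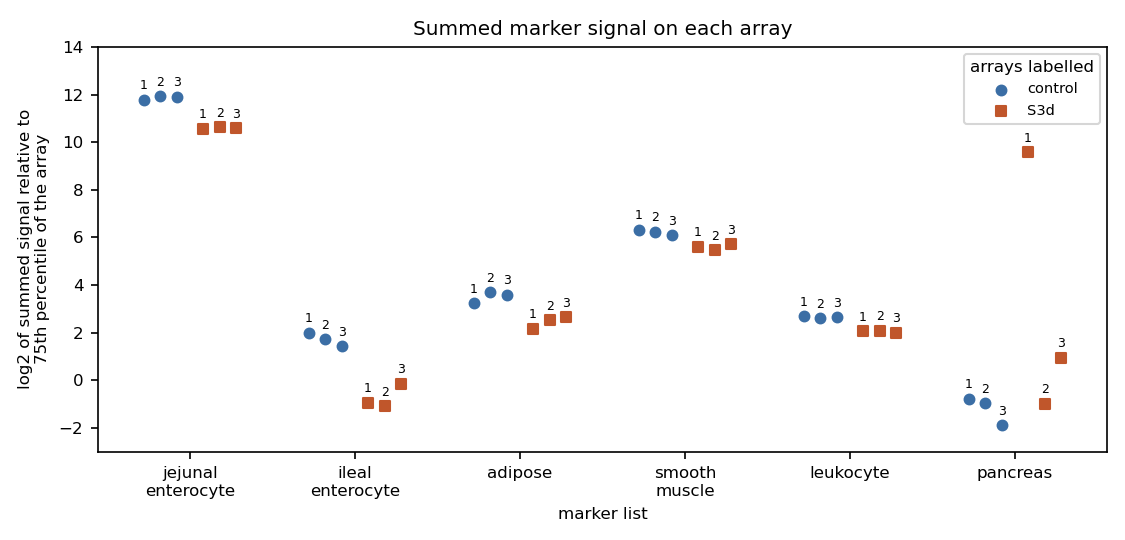
Summed signal of each marker list (y axis, log2 of the sum relative to the 75th percentile of the array) on the arrays labelled control (circles) and S3d (squares), with replicate numbers. With this scaling the sums of enterocyte, adipose, muscle and leukocyte markers are lower on the S3d arrays without overlap. The pancreas list is at 9.57 on S3d 1 alone. Other scalings are not shown.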

How the data were processed

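RNA of 3 control and 3 S3d jejunum samples was measured on 1-colour Agilent arrays, and the array was the replicate. The authors deposited intensity values from Agilent Feature Extraction 10.7.3.1, of which the processed signal, already corrected for background, was used. They also deposited a table of log2 values whose sorted columns differed by at most 0.00253, with a median of 6.65 in every column. The program behind it is not given in the sources used here. The labels and the methods of the study give different numbers of rats per group, and those of the labels are printed.

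The log2 processed signal minus the array's 75th percentile was tested with limma 3.58.1 (lmFit, then eBayes, no block; R 4.3.3), with Benjamini-Hochberg adjustment over 31367 probes. Outlier-flagged and control spots were dropped, and repeated spots averaged. A probe entered the test if every array of either group showed it well above background. It was called where the adjusted p was under 0.05 and the fold at least 1.5, and the probe with the highest mean stood for a gene. No spot was saturated, and the number of arrays limits the precision. Accessions were matched to RefSeq symbols (GRCr8) for 17512 of 41012 probes. Gene coordinates are not given, since the array files name another build.

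The members and lists were chosen with earlier results of these data known. The text names the members, a fixed set of pathway genes where matched (some are not reported here), the called gene with the largest rise and fall in each pathway group, and the 5 genes most like Slc27a2. A lower bound on a fold is the S3d mean over the mean, per control array, of the higher of the dim probe's signal and the lowest signal among probes well above background. Alternatives were quantile, median and no scaling, normexp with an offset of 50 on the median spot and background signals, other filters and thresholds, outlier spots kept, the deposited table, the replicate number as a block, the methods' analysis of variance, the mean over probes, and each array left out.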

Additional observations from a re-analysis of the deposited data

How the results depend on the processing

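Leaving out each array in turn gave 6 called member probes every time, 37 to 40 called pathway genes and 15984 to 16455 called probes in all. The replicate numbers did not pair the samples (correlations of same-numbered deviations 0.02, 0.022 and -0.049), and with the replicate number as a block 6 member probes, 37 pathway genes and 16314 probes were called. The slide was not run as a block, since no slide holds both groups. With normexp, 1 member probe, 6 pathway genes and 1752 probes were called; the cause was not tested. Without scaling, 75 pathway genes and 28900 probes were called, with a median difference of 1.93. An adjusted p under 0.05 alone gave 61 of 79 pathway genes and 23202 of 31367 probes.

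Some directions turned. By its own labels the deposited table gave, for the members, -4.26 and -4.8 for Slc27a2, -0.47 for Cpt1a, -1.05 for Acadl, -0.16 for Ehhadh, -0.81 for Angptl4, 0.83 for Ppara, 1.12 for Acadm and 1.55 for Pdk4. It gave below 0 Pparg (-0.31), Cpt2 (-0.37), Hscb (-0.38), Lpin1 (-0.6), Rev3l (-0.75), Hadha (-0.78), Lemd3 (-0.82), Slc22a5 (-1.03), Adam9 (-1.07), Decr1 (-1.56), Acacb (-1.57), Amacr (-1.75), Cd36 (-1.75), Cyp4a1 (-1.84) and Slc30a3 (-2.27), and above 0 Lpl (0.06), Fabp1 (0.24), Acadvl (0.27), Abcd3 (0.47), Ucp2 (0.82), Ppargc1a (0.95), Acads (1.16) and Ppard (2.26). The labels of the 2 sources oppose each other, and which is right was not settled. Without scaling, Acads (0.21), Fabp1 (0.21), Acadm (0.22), Pdk4 (0.54), Ucp2 (0.81), Abcd3 (0.92), Ppargc1a (0.92), Ppara (1.05), Acadvl (1.17) and Lpl (1.84) turned positive. Median centring turned Ehhadh (-0.04) and Cpt2 (-0.11), and normexp turned Rev3l (-0.04), Lpin1 (-1.3) and Acacb (-1.82). Lpl, at 0, gave 0.44 as a mean over its probes and -0.05 to 0.07 with an array left out.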

Other observations

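Another kinase of pyruvate dehydrogenase lay on the other side of 0 from Pdk4. Pdk1, chosen for description after its value was seen, rose by 1.13 (SE 0.0701, limma adjusted p = 3.98e-05), and kept a positive difference with quantile normalization (1.08) and normexp (0.28, not called). Pdk2 differed by 0.19 (adjusted p = 0.441) and Pdk3 by 0.1 (adjusted p = 0.327), while a second Pdk3 probe gave 1.27. Median centring gave -0.07 for Pdk3.

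Other genes of the pathway list were also named after their values were seen. Hnf4a, a nuclear receptor of enterocytes and hepatocytes, fell by 1.59 (SE 0.063, limma adjusted p = 1.4e-05), and its second probe differed by -0.58, under the fold threshold. Esrra, a receptor that drives genes of mitochondrial metabolism, fell by 1.01 (SE 0.0683, adjusted p = 5.3e-05), but with quantile normalization the difference was -0.42 and under the fold threshold. Without scaling between arrays both were positive, at 0.25 and 0.83. Txnip, an inhibitor of glucose uptake, rose by 1.29 (SE 0.116, adjusted p = 0.000153) and gave 1.43 with normexp. The peroxisomal genes Abcd2 and Pex11a rose by 1.3 (SE 0.157, adjusted p = 0.000528) and 1.1 (SE 0.0976, adjusted p = 0.000144). Normexp gave -0.81 for Abcd2 and 0.44, not called, for Pex11a. A second Pex11a probe gave 0.56, under the fold threshold.

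Probes of Acsl1, an acyl-CoA synthetase of the same step as Slc27a2, were called in both directions, at -1.61 and 1. The brightest gave -0.25. It was the 1 gene of the 20 with several tested probes in which this occurred.

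Control 1 had the lowest value of its group in 6 of 9 member probes and in 51 of 79 pathway genes (64.6%), against 36.2% of all tested probes. S3d 1, the array with pancreatic RNA, had the lowest value of its group in 4 of 9 member probes (37.5% of all tested probes) and the highest in 45.6% of the pathway genes (38.4% of all tested probes). S3d 3 was lowest in 4 of 9 member probes and in 45 of 79 pathway genes (57%), against 32.8% of all tested probes.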
